A study of Mus musculus with 8 samples.

Results

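The protein disulfide isomerase family was examined in mouse pituitary lobes whose melanotropes carried dominant-negative forms of the transcription factors Creb3l2 and XBP1. The family was taken as 10 genes, P4hb, Pdia3, Pdia4, Pdia5, Pdia6, Txndc5, Txndc11, Erp29, Erp44 and Dnajc10, and each was found by its gene symbol in the table of expression levels and joined by its Ensembl identifier to the table of read counts. All 10 passed the filter on low counts, among 15580 genes that passed it and 48526 in the count table. RNA was sequenced from neuro-intermediate lobes, the part of the pituitary that holds the intermediate lobe with its melanotropes together with the posterior lobe, of C57B6 mice, described in the methods as 3-month-old males. There were 4 groups with 2 libraries each, and each library came from a pool of 5 lobes. WT mice carried no transgene, ACreb3l2 mice expressed a dominant-negative Creb3l2, AXBP1 mice expressed a dominant-negative XBP1, and ACreb3l2_AXBP1 mice, called double-transgenic here, expressed both. In each dominant-negative protein the DNA-binding region is replaced by an acidic stretch, so that it pairs with its partner and keeps it off DNA. Both transgenes were driven by a fragment of the rat POMC promoter, which limits them to POMC-producing cells, whereas the pools held all cells of the lobe. Values from whole lobes cannot tell fewer cells of a type from less RNA per cell.

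Protein disulfide isomerases are enzymes of the endoplasmic reticulum lumen, built from domains of the thioredoxin fold, that make, break and rearrange disulfide bonds in newly made secreted proteins. Melanotropes secrete peptides cut from the precursor POMC, which folds with disulfide bonds in the same compartment. XBP1 is a transcription factor of the unfolded protein response that acts on folding and degradation genes, and Creb3l2 belongs to a group of membrane-bound factors that act on secretory pathway genes once cut free.

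Counts assigned to genes ranged from 28256086 to 37988912 per library. The least abundant member, Pdia5, had at least 161.2 normalized counts in each library, and counting error weighed more for it than for the other members. Pomc alone took 6.91 to 14.6% of the counts. The summed level of 6 melanotrope markers ranged from 113000 to 169000 CPM (counts scaled to a fixed library total) in WT, from 104000 to 125000 in the single-transgenic groups and from 67600 to 92100 in double-transgenic lobes. Most of this sum was Pomc itself. The log2 changes of the 6 markers in double-transgenic against WT lobes differed, from -0.88 for Tbx19 to -0.08 for Pax7. Markers of pituicytes, endothelial cells, macrophages, fibroblasts and anterior lobe cells were detected in all libraries. Members differed between the 2 pools of a group by a median of 0.23 on the log2 scale in WT and 0.25 in double-transgenic lobes, and by 0.08 in ACreb3l2 and 0.06 in AXBP1 lobes. The transgene RNAs themselves were not analysed here, and because the constructs hold coding sequence of each factor from its leucine zipper onward, counts of Creb3l2 and Xbp1 can include transgene reads and do not check the labels. Creb3l2 was at -0.08 in ACreb3l2 lobes and -0.45 in AXBP1 lobes against WT, with edgeR adjusted p of 0.874 and 0.492. It was lower in double-transgenic than in WT lobes, with a log2 change of -0.69 and an edgeR adjusted p of 0.0428, a call that was lost when any library but the first double-transgenic one was left out (highest edgeR adjusted p 0.178), with scaling by library size (edgeR adjusted p = 0.0552), with only the compared groups (edgeR adjusted p = 0.0807) and with the replicate block (edgeR adjusted p = 0.0571). Xbp1 was at -0.46, 0.06 and 0.27 against WT in ACreb3l2, AXBP1 and double-transgenic lobes, with edgeR adjusted p of 0.127, 0.9 and 0.227.

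Levels of the members can be compared with each other in FPKM, the fragment counts that the authors scaled by transcript length and library size before deposit. P4hb, the archetypal disulfide isomerase and also a subunit of collagen prolyl 4-hydroxylase, was the most abundant member in WT, at 320.6 and 397.8 FPKM in the 2 libraries. Pdia6, an isomerase that associates with the chaperone BiP, followed at 189.2 and 219.7 FPKM. The next pair was Pdia4, an isomerase with several thioredoxin domains, at 158.1 and 178.4 FPKM, and Pdia3, the isomerase that works on glycoproteins with calnexin and calreticulin, at 135.1 and 175.6 FPKM, and their libraries overlapped. Txndc5, a further isomerase, stood at 102.4 and 111.3 FPKM and overlapped Erp29, a chaperone that lacks the redox-active motif, at 101.9 and 107.9 FPKM. Dnajc10, a disulfide reductase with a J domain that helps misfolded proteins leave for degradation, was at 53.98 and 45.31 FPKM. Erp44, which retains thiol-bearing proteins and oxidases in the early secretory pathway, was at 36.74 and 40.46 FPKM, below Dnajc10 in both libraries. The membrane-bound Txndc11 was at 16.57 and 18.07 FPKM, and Pdia5 was lowest at 3.513 and 4.57 FPKM. The mean of P4hb was thus 88.9-fold that of Pdia5, and in the order of all 15580 tested genes by mean WT level P4hb held rank 129 and Pdia5 rank 10246.

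The order of the middle of the family depended on the length used. With counts divided by all annotated exon bases, P4hb, Txndc5, Txndc11 and Pdia5 kept ranks 1, 5, 9 and 10, whereas Pdia6 moved from rank 2 to rank 4 and Erp29 from rank 6 to rank 8. Erp29 has 9060 annotated exon bases, of which 24.4% overlap the exons of Naa25 on the opposite strand. Txndc5 shares 6.92% of its exon bases with the antisense gene Gm31834 and 4.99% with Bmp6, both on the opposite strand. The labels describe ribosomal depletion and the methods name a stranded mRNA kit, and whether counting used strand is not given in the sources used here, so the levels of Erp29 and, to a smaller degree, Txndc5 are uncertain. Each of the other members shared at most 1.34% of its exon bases with any one other gene.

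Sequence just before the transcription start is shown for P4hb, which was the most abundant member and changed in double-transgenic lobes, and for Pdia6 and Pdia4, the next most abundant members, which edgeR called in no group against WT and DESeq2 called lower in double-transgenic lobes (adjusted p = 0.017 and 0.0494). Windows from RefSeq (GRCm38.p6, 250 bases before to 50 bases after a start) were matched for 9 of the 10 members, all but Erp29. Capitals mark the letters CCACG, which are part of the ER stress response element to which XBP1 is known to bind, ACGT, the core of sites of many factors of this class, and CCAAT, each searched on both strands, and the matches can overlap each other. A match that crosses the end of a printed stretch is not marked, as for a CCACG of P4hb from base -3 to base 1. The P4hb stretch is chr11:120573254-120573403 on the minus strand, the Pdia4 stretch is chr6:47813513-47813662 on the minus strand, and the Pdia6 stretch is chr12:17266439-17266544 on the plus strand, which stops at base -45 from the RefSeq start because an annotated exon begins there. They read, 5′ to 3′:
P4hb: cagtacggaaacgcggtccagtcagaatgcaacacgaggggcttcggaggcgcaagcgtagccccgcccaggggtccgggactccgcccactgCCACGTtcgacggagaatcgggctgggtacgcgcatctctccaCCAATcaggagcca
Pdia4: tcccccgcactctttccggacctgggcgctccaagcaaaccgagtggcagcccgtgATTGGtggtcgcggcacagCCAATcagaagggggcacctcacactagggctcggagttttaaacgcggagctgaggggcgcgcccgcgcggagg
Pdia6: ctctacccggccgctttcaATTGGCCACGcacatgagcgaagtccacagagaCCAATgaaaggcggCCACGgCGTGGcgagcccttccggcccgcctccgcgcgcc

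Where a gene had several windows, all were searched. In the full windows, a complete ER stress response element (CCAAT, 9 further bases, then CCACG) was present in 1 of the 9 members, Pdia6, from base -98 to base -80 counted from the start, and in 0.137% of all 27025 genes with a window. CCACG alone was present in 7 of the 9 members and in 35.5% of all genes. ACGT was present in 6 of the 9 and in 33.8% of all genes, and CCAAT in 6 of the 9 and in 41.1%. In P4hb a CCACG and an ACGT overlap from base -57 to base -52, and a CCAAT lies from base -14 to base -10. These matches describe letters in a window only.

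In ACreb3l2 lobes 1 of the 10 members was lower than in WT, Txndc5, while P4hb and Pdia5 showed changes of similar size that did not pass the test and Pdia4 and Pdia6 stayed close to WT. The WT pools gave 10180 and 11440 normalized counts of Txndc5 and the ACreb3l2 pools 7513 and 7439. Both ACreb3l2 libraries lay below both WT libraries, and Txndc5 fell by 30.8%, which on the log2 scale was -0.53 ± 0.091 (SE, n = 2 per group), with an adjusted p of 0.0138 by edgeR's quasi-likelihood test. Of all tested genes 3.04% were called in this comparison.

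WT libraries held 33390 and 39930 counts of P4hb and ACreb3l2 libraries 25770 and 25160, again without overlap. Its log2 change was -0.53, with a 95% interval from -0.81 to -0.24, and the edgeR adjusted p was 0.0595. Pdia5 stood at 245.8 and 317.4 in the WT pools and at 176.3 and 191.9 in the ACreb3l2 pools, a log2 change of -0.61 with an interval from -1.01 to -0.21 and an edgeR adjusted p of 0.114. For Pdia4 and Pdia6 the log2 changes were -0.02 (interval -0.30 to 0.26) and -0.05 (interval -0.34 to 0.24), so that changes as large as that of Txndc5 lay outside both intervals. All 10 estimates were below 0, with a median of -0.22, whereas the median over all tested genes was 0.01, and 4 members had an unadjusted p under 0.05, as did 16.8% of all tested genes. The Txndc5 call was lost without the second WT library (edgeR adjusted p = 0.0873) and without the first or the second ACreb3l2 library (edgeR adjusted p = 0.0801 and 0.102). P4hb was called when the first WT library (edgeR adjusted p = 0.0357) or either double-transgenic library (edgeR adjusted p = 0.0312 and 0.0298) was left out, and by DESeq2 (adjusted p = 0.000946). In ACreb3l2 lobes all 6 melanotrope markers had estimates below 0, with a median of -0.27, and 7 of 8 pituicyte and astrocyte markers had estimates above 0, with a median of 0.42. Estimates were also above 0 for 7 of 8 macrophage, 5 of 8 anterior lobe and all 5 erythroid markers, with medians of 0.14, 0.37 and 0.45. They were below 0 for 5 of 8 endothelial and 6 of 8 fibroblast and pericyte markers, with medians of -0.04 and -0.05. EdgeR called 0 of these markers, and their part in these values was not tested.

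**Figure D1:**
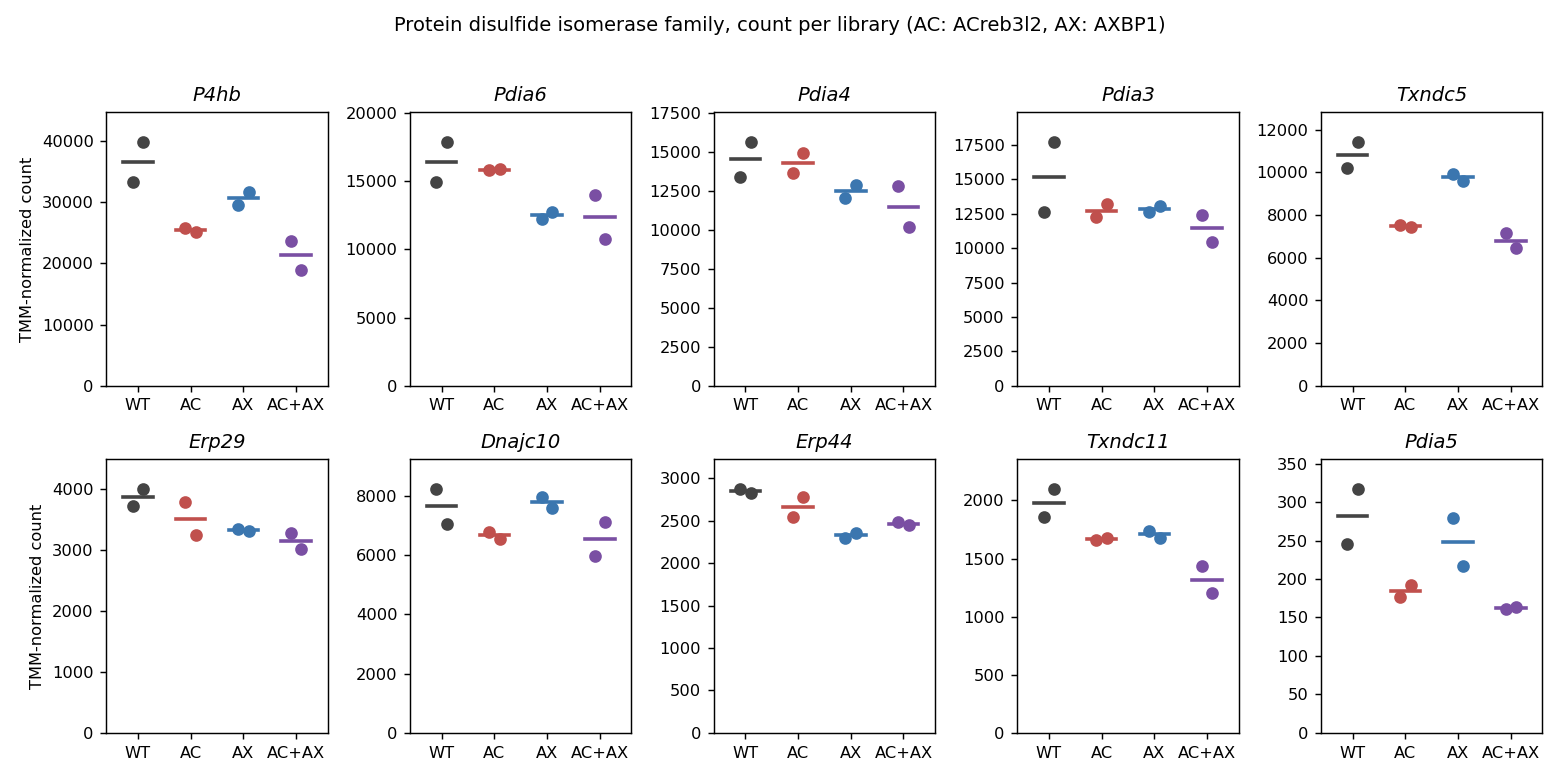
TMM-normalized count (vertical axis, from 0, scaled for each gene) of the 10 members in each of the 8 libraries, in order of their level in WT; points are libraries and bars are group means. For Txndc5, P4hb and Pdia5 the points of ACreb3l2 (AC) and double-transgenic (AC+AX) lobes lie below those of WT and AXBP1 (AX) lobes, and for Pdia6 the AXBP1 and double-transgenic points lie below both WT points and the ACreb3l2 points between them. Against WT edgeR called Txndc5 alone in ACreb3l2 lobes, 0 members in AXBP1 lobes, and Txndc5, P4hb, Txndc11 and Pdia5 in double-transgenic lobes.

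In AXBP1 lobes none of the 10 members passed the test by edgeR (0 called) and 9 of the 10 estimates were below 0, from -0.40 for Pdia6 to -0.15 for Txndc5. Differences between members were not tested. In this comparison edgeR called 0% of all tested genes, although 1554 of them had an unadjusted p under 0.05. DESeq2 called 0 members and 79 genes. Counts of Pdia6 were 14960 and 17910 in WT and 12230 and 12760 in AXBP1 lobes, and the 2 groups did not overlap. Its log2 change was -0.40, with an interval from -0.69 to -0.10. Erp44 had 2877 and 2823 counts in WT and 2295 and 2358 in AXBP1 lobes, a log2 change of -0.29 with an interval from -0.47 to -0.12 and the lowest p of the family (edgeR adjusted p = 0.474). Along with Erp29, at -0.22, these made 3 members with an unadjusted p under 0.05. P4hb was at -0.26 (interval -0.54 to 0.02) and Txndc5 at -0.15 (interval -0.35 to 0.06). Dnajc10 was the only member with an estimate above 0, at 0.02, and the median of the 10 was -0.22, against 0.0014 for all tested genes. In the same lobes the median change was -0.17 for the 6 melanotrope markers and 0.42 for the 8 endothelial markers, all 8 of which had estimates above 0. All 8 fibroblast and pericyte markers were also above 0, with a median of 0.31. Of 8 anterior lobe markers 6 had estimates below 0, from -1.46 for Gh to -0.02 for Cga, and Gnrhr (0.49) and Lhb (0.05) were above 0. The summed level of the 8, in which the most abundant genes weigh most, was 2480 to 2600 CPM against 4800 to 7120 in WT. None of these markers was called by edgeR (0 called), and their part in the values of the family was not tested.

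In double-transgenic lobes 4 of the 10 members were lower than in WT: Txndc5, P4hb, Txndc11 and Pdia5. None was higher. Among all tested genes 10.1% were called, 477 higher and 1089 lower. With scaling by library size alone, 1650 were called, 1104 of them higher, and the median of all genes moved to 0.173, while P4hb, Txndc5 and Txndc11 were still called lower. Counts of P4hb were 23680 and 18940 in double-transgenic lobes, below the 33390 and 39930 of WT. P4hb fell by 41.9%, or -0.78 ± 0.128 on the log2 scale (SE, n = 2 per group), with an edgeR adjusted p of 0.00725. Txndc5 was at 7151 and 6446 counts, and it fell by 37.1%, or -0.67 ± 0.0912 on the log2 scale (SE, n = 2 per group), with an edgeR adjusted p of 0.00317. For both isomerases the highest double-transgenic library lay well below the lowest WT library.

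Pdia5 had 161.2 and 163.3 counts in double-transgenic lobes, and it fell by 42.3%, or -0.79 ± 0.18 on the log2 scale (SE, n = 2 per group), with an edgeR adjusted p of 0.0256. Txndc11 had 1858 and 2102 counts in WT and 1433 and 1205 in double-transgenic lobes, and it fell by 33.4%, or -0.59 ± 0.103 on the log2 scale (SE, n = 2 per group), with an edgeR adjusted p of 0.0101. For Txndc11, with 1656 and 1676 in the ACreb3l2 pools and 1741 and 1674 in the AXBP1 pools, both single-transgenic groups lay between WT and the double-transgenic group. The 4 called members ranged in WT level from the highest, P4hb, to the lowest, Pdia5.

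The other 6 members had estimates from -0.41 to -0.21 in double-transgenic lobes. Pdia6 was at 14020 and 10750 counts, a log2 change of -0.41 with an interval from -0.70 to -0.12 and an edgeR adjusted p of 0.074, and Erp29 was at -0.30 (edgeR adjusted p = 0.0732). Pdia3, with 12620 and 17740 counts in WT and 12430 and 10440 in double-transgenic lobes, was at -0.41 with the wide interval of -0.75 to -0.07. Pdia4 was at -0.34, Dnajc10 at -0.23 and Erp44 at -0.21. All but Dnajc10 had both double-transgenic libraries below both WT libraries, 9 of 10 members, where 28.7% of all tested genes were placed so. The median of the 10 changes was -0.41, against 0.01 for all tested genes.

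The count of called members in double-transgenic lobes rested partly on single libraries. Without the second double-transgenic library only Txndc5 was called, a count of 1, and the edgeR adjusted p was 0.0573 for P4hb, 0.0865 for Txndc11 and 0.161 for Pdia5. Without the second WT library the calls of Txndc11 (edgeR adjusted p = 0.0638) and Pdia5 (0.154) were lost, and without the first double-transgenic library that of Pdia5 was lost (0.0614) while Pdia4 (0.031) and Pdia6 (0.0174) were called. Without the first WT library 6 members were called, Pdia3 (edgeR adjusted p = 0.0144) and Pdia6 (0.0435) being added. Txndc5 was called in all 16 alternatives that were run, P4hb in 15, Txndc11 in 14 and Pdia5 in 9. Pdia5 was also not called by limma on either pseudocount (adjusted p = 0.0554 and 0.06), with scaling by library size (edgeR adjusted p = 0.055) or with only the compared groups (edgeR adjusted p = 0.0511). DESeq2 called 7 members, adding Pdia3 (DESeq2 adjusted p = 0.0308), Pdia4 (0.0494) and Pdia6 (0.017). In the same lobes all 6 melanotrope markers had estimates below 0, from -0.88 to -0.08, and their median of -0.50 lay beside the family median of -0.41. Of the 6, 1 fell, the melanotrope factor Tbx19, with a log2 change of -0.88 and an edgeR adjusted p of 0.0245. All 8 pituicyte and astrocyte markers had estimates above 0, with a median of 0.34, and 1 of them, Aqp4, rose, at 0.51 with an edgeR adjusted p of 0.0464, and their summed level was 833 to 1070 CPM in WT and 1100 to 1330 in double-transgenic lobes. All 8 endothelial markers had estimates above 0, from 0.32 to 0.65 with a median of 0.55 and a lowest edgeR adjusted p of 0.057, and 7 of 8 fibroblast and pericyte markers did, with a median of 0.31. The part of cell composition in the changes of the family was not tested.

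**Figure D2:**
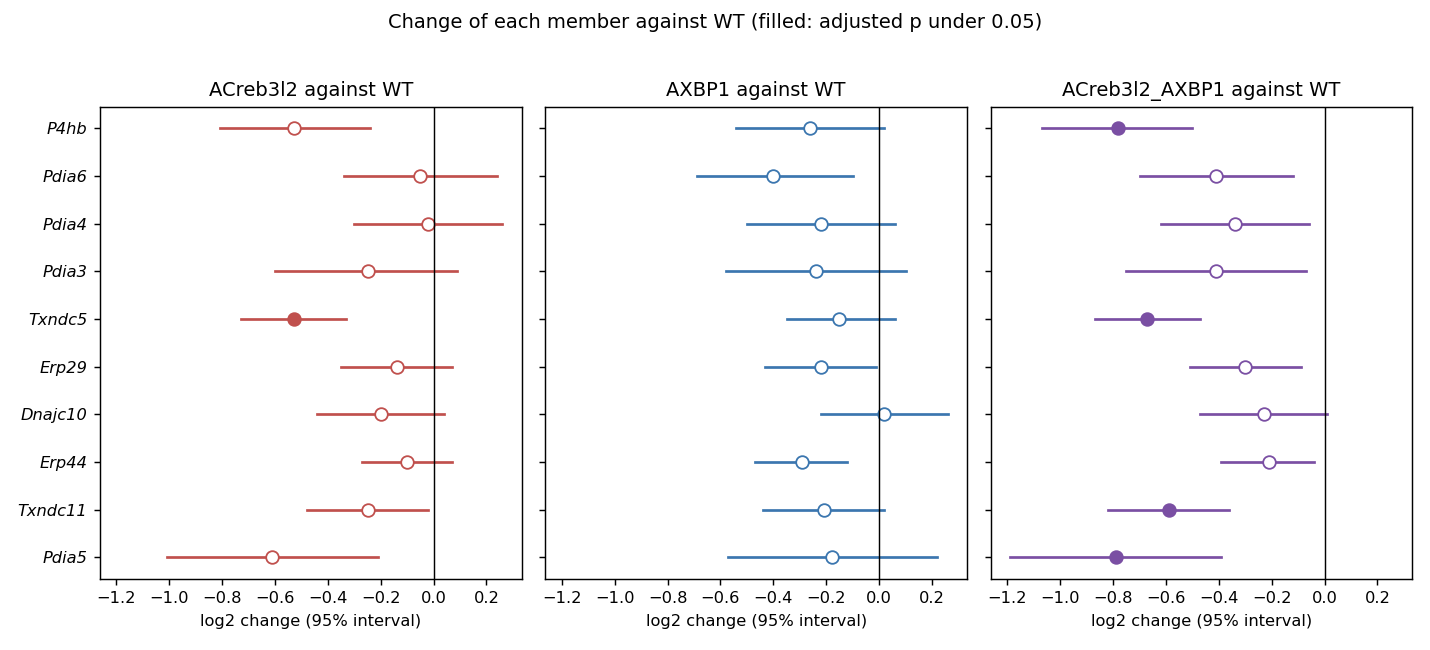
Log2 change against WT (horizontal axis) of each member in ACreb3l2, AXBP1 and double-transgenic lobes, with 95% intervals from the edgeR fit; filled points passed the test at an adjusted p under 0.05. There is 1 filled point for ACreb3l2 (Txndc5), 0 for AXBP1 and 4 for double-transgenic lobes, and every estimate but that of Dnajc10 in AXBP1 lobes is below 0.

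The transgenes were also compared with each other and with their combination, to ask whether the second transgene changed a member further. Between ACreb3l2 and AXBP1 lobes edgeR called 0 members, where 0.719% of all tested genes were called, and 4 members had an unadjusted p under 0.05, as did 9.49% of all tested genes. Txndc5, at 9915 and 9611 counts in AXBP1 lobes, had a log2 difference of -0.39 between ACreb3l2 and AXBP1 lobes (interval -0.59 to -0.18, edgeR adjusted p = 0.118). This difference was called by DESeq2 (adjusted p = 0.0179) and when only the 2 groups were fitted (edgeR adjusted p = 0.0492). Pdia5 was at -0.43 in the same direction, and P4hb at -0.27. Pdia6, at 15830 and 15870 counts in ACreb3l2 lobes, was on the other side, at 0.34 (interval 0.05 to 0.63), as was Erp44 at 0.19. Libraries of the 2 groups did not overlap for 7 members, 4 being lower in ACreb3l2 lobes and 3 higher, where 22.4% of all tested genes were lower without overlap and 21.5% higher. The family was thus not shown to differ between the 2 transgenes, with estimates of both signs.

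Between double-transgenic and AXBP1 lobes 1 member was called, Txndc5, at -0.52 ± 0.0911 on the log2 scale (SE, n = 2 per group), with an edgeR adjusted p of 0.0365, where 0.623% of all tested genes were called. It was called in 7 of 16 alternatives. The call was lost without either ACreb3l2 library, either AXBP1 library or the second double-transgenic library, with edgeR adjusted p up to 0.382, and with the replicate number as a block (edgeR adjusted p = 0.0899). P4hb was at -0.52 as well (interval -0.81 to -0.24; edgeR adjusted p = 0.13), Pdia5 at -0.61 and Txndc11 at -0.37. Pdia6 was at -0.01 (interval -0.30 to 0.28).

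Between double-transgenic and ACreb3l2 lobes edgeR and DESeq2 each called 0 members, and edgeR called 0% of all tested genes, with 1112 at an unadjusted p under 0.05. All 10 estimates were below 0, with a median of -0.17, and 3 members had an unadjusted p under 0.05, which were Txndc11 at -0.34 (interval -0.57 to -0.11), Pdia6 at -0.36 (interval -0.65 to -0.06) and Pdia4 at -0.32 (interval -0.59 to -0.04). Txndc5 was at -0.14 (interval -0.34 to 0.07). The interaction of the transgenes, which is the departure of the double-transgenic change from the sum of the 2 single changes on the log2 scale, was called for 0 members by edgeR and by DESeq2 and for 0% of all tested genes by edgeR. None of the members and 386 of all genes had an unadjusted p under 0.05 for it. The estimates for the members ran from -0.12 for Txndc11 to 0.18 for Erp44, with intervals from -0.54 to 0.53 for Pdia5 and from -0.28 to 0.30 for Txndc5.

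The make-up of the family is given as a description, without a test. P4hb supplied 28.7 and 30.6% of the summed FPKM of the 10 members in the WT pools. The share was 25.6 and 23.4% with ACreb3l2 alone, 28.3 and 29.5% with AXBP1 alone, and 24.0 and 22.8% with both. The groups with ACreb3l2 thus lay below the groups without it in each library. Pdia6 supplied 16.9% ± 0.0064 (SD, n = 2) in WT and 19.6% ± 0.26 with ACreb3l2 alone. With AXBP1 alone its share was 15.3% ± 0.0059, and with both transgenes 18.2% ± 0.85. Pdia4 went from 13.9% ± 0.29 in WT to 16.6% ± 1.3 in ACreb3l2 and 15.8% ± 0.44 in double-transgenic lobes. A larger share was not a higher level here. The log2 changes in counts against WT were -0.02 for Pdia4 and -0.05 for Pdia6 in ACreb3l2 lobes. In double-transgenic lobes they were -0.34 and -0.41.

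The summed FPKM of the family was 1118 and 1299 in WT. It was 1060 and 991 with ACreb3l2 alone, 880.8 and 938.6 with AXBP1 alone, and 868.7 and 793.2 with both transgenes. Group means relative to WT were 0.849, 0.753 and 0.688. By summed normalized counts, in which long transcripts weigh more, the ratios were 0.821, 0.849 and 0.699, so the order of the single-transgenic groups depended on the scale. The FPKM of all genes summed to less in AXBP1 lobes (587090 and 682710) and in double-transgenic lobes (630406 and 637930) than in WT (748088 and 778140), which moves with the lower FPKM sum of the family in both groups, and its part in those sums was not tested. As a share of all FPKM the family made up 0.149 and 0.167% in the WT pools, 0.141 and 0.131% with ACreb3l2 alone, 0.15 and 0.137% with AXBP1 alone, and 0.138 and 0.124% with both transgenes.

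**Figure D3:**
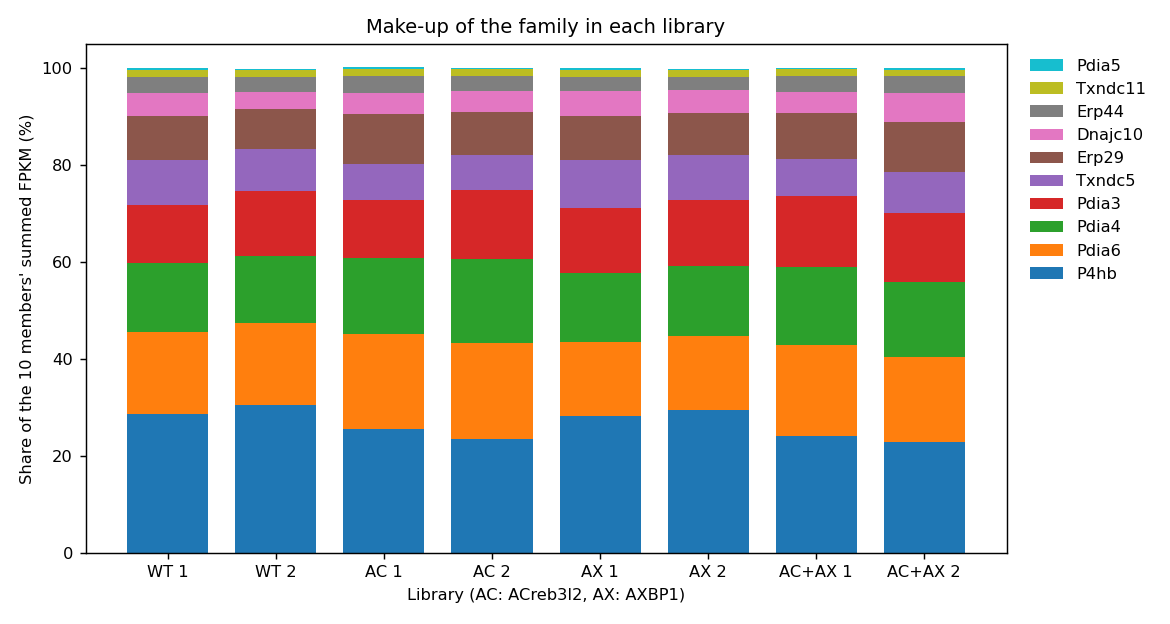
Share of each member in the summed FPKM of the 10 members (vertical axis, percent) for each of the 8 libraries (horizontal axis), stacked from the most abundant in WT at the bottom. The P4hb segment is between 28.3 and 30.6% in WT and AXBP1 (AX) libraries and between 22.8 and 25.6% in ACreb3l2 (AC) and double-transgenic (AC+AX) libraries.

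Across the 8 libraries, the members varied together to different degrees. The correlation of a member's log2 CPM with the mean of the other members, given as a description of libraries that share their group differences, was highest for Txndc11 (r = 0.975) and P4hb (r = 0.937). It was lowest for Erp44 (r = 0.519) and Dnajc10 (r = 0.236). Over the 45 pairs of members r ran from -0.246 to 0.965, with a median of 0.661. The 5 genes outside the family whose log2 CPM followed the mean of the members most closely were 3110082I17Rik, Fam195a, Smpd1, Serinc2 and Ndufs3, with r from 0.991 to 0.994 over 8 libraries.

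Other genes of oxidative folding were read from a list of 32, of which 28 passed the filter. Of these 28, 4 were lower and 0 higher in double-transgenic than in WT lobes, and their median log2 change was -0.15, beside the 10.1% of all tested genes that were called. The count was 7 by DESeq2, 11 without a filter, 2 by library size and by limma on either pseudocount, and 3 with the replicate block. The 4 called by edgeR included Vkorc1, a vitamin K epoxide reductase, Selm, a selenoprotein with a thioredoxin-like fold, and Prdx4, the peroxiredoxin of the endoplasmic reticulum. Selm was at 2659 and 2879 counts in WT and 1961 and 1824 in double-transgenic lobes, a log2 change of -0.55 (edgeR adjusted p = 0.0102). Prdx4 was at 2125 and 2120 counts in WT and 1660 and 1640 in double-transgenic lobes, a log2 change of -0.36 (edgeR adjusted p = 0.0246). The fourth, Edem1, which directs misfolded glycoproteins to degradation and works with Dnajc10, had a log2 change of -0.34 (edgeR adjusted p = 0.0462). Each of the 4 calls was lost without the second double-transgenic library, with edgeR adjusted p of 0.091 for Selm, 0.145 for Prdx4, 0.101 for Vkorc1 and 0.176 for Edem1. Without the second WT library all 4 were also lost (edgeR adjusted p from 0.0626 to 0.167). The Prdx4 call was further lost without either AXBP1 library (edgeR adjusted p = 0.0521 and 0.054), and the Edem1 call without each of the 8 libraries in turn. By library size Prdx4 was at -0.20 and Edem1 at -0.17, neither called (edgeR adjusted p = 0.125 and 0.241), and with the replicate block Edem1 was not called (edgeR adjusted p = 0.0749).

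Vkorc1 was at 239 and 278.1 counts in the WT pools and at 240.2 and 227.5 with AXBP1 alone. With ACreb3l2 alone it was at 100.6 and 108.5, and with both transgenes at 146.4 and 137.6. Among the 28 genes it alone passed the test in ACreb3l2 lobes, where 3.04% of all tested genes were called. Its log2 change was -1.31 in ACreb3l2 lobes (edgeR adjusted p = 0.00255) and -0.86 in double-transgenic lobes (edgeR adjusted p = 0.0107). The count of 1 in ACreb3l2 lobes became 2 by DESeq2, 4 without a filter (Selm among them, edgeR adjusted p = 0.0257) and 2 without the first ACreb3l2 library. Of the exon bases of Vkorc1 47.7% are shared with Gm21974 on the same strand, so its read count is uncertain. In AXBP1 lobes edgeR and DESeq2 each called 0 of the 28, and 1 had an unadjusted p under 0.05, as did 9.97% of all tested genes.

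Among 10 tested partners of single members Edem1 was the only one called in double-transgenic lobes, where 10.1% of all tested genes were called. The oxidases of the isomerases, Ero1l and Ero1lb, were at -0.10 (interval -0.28 to 0.07) and -0.16 (interval -0.39 to 0.07) in double-transgenic lobes. Calr and Canx, the lectin chaperones that pair with Pdia3, were at -0.37 (interval -0.71 to -0.03) and -0.16 (interval -0.39 to 0.07), and Hspa5, the chaperone BiP, was at -0.29 (interval -0.62 to 0.03). The subunits of collagen prolyl 4-hydroxylase that bind P4hb were at -0.02 for P4ha1, -0.61 for P4ha2 and 0.19 for P4ha3, with edgeR adjusted p of 0.0583 for P4ha2 and 0.694 for P4ha3. Of the 7 tested thioredoxin-fold proteins outside the family 5 had estimates above 0, up to 0.44 for Tmx3 and 0.57 for Agr3, of which Tmx3 had the lower edgeR adjusted p, 0.0783.

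**Figure D4:**
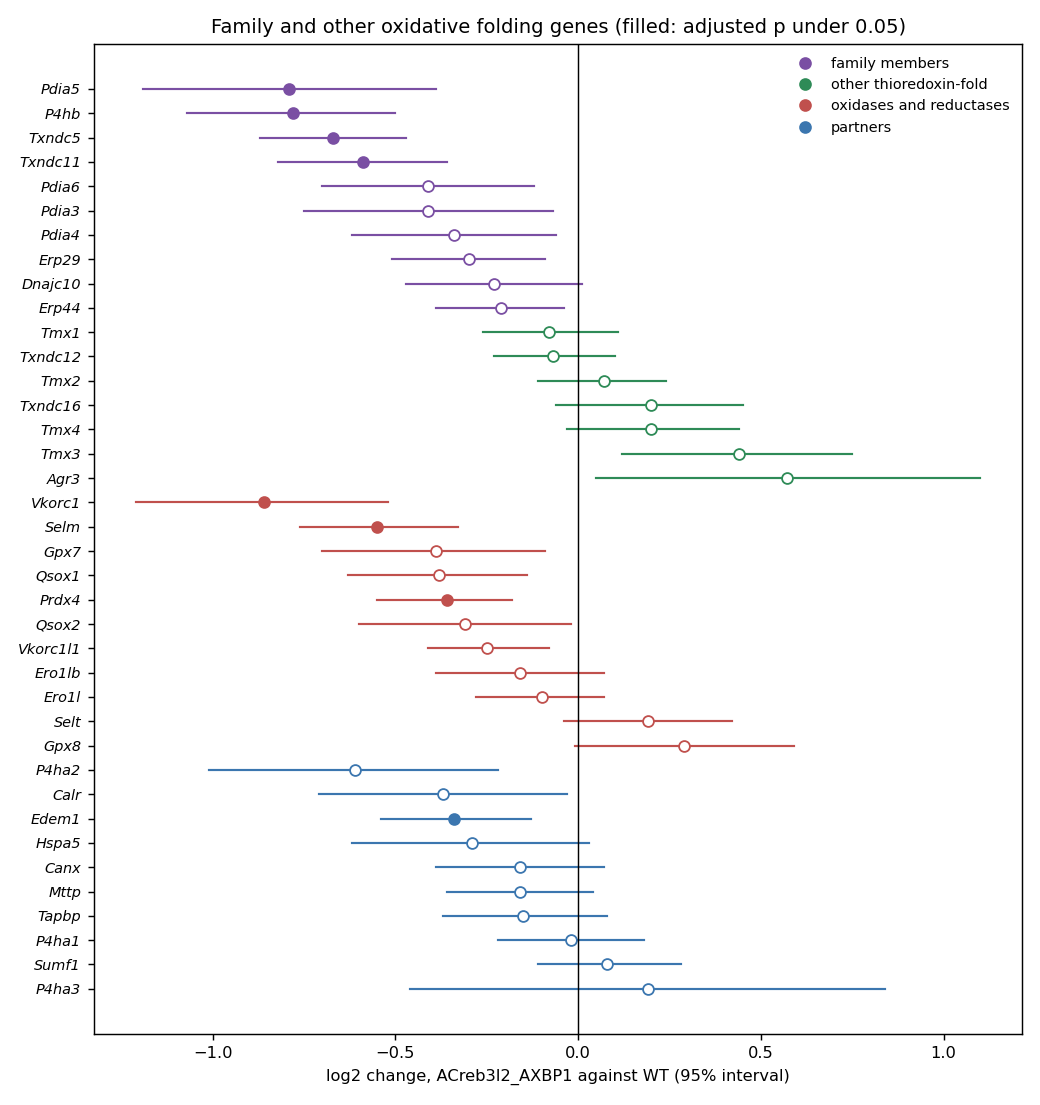
Log2 change in double-transgenic against WT lobes (horizontal axis, with 95% intervals) for the 10 family members and the 28 other oxidative folding genes that were tested, grouped by role and ordered within a role; filled points passed the test at an edgeR adjusted p under 0.05. All 10 members are below 0 and 4 are filled, while 5 of the 7 other thioredoxin-fold proteins are above 0 and none of those is filled.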

How the data were processed

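RNA from 8 pools of neuro-intermediate lobes was depleted of ribosomal RNA and sequenced in paired ends, per the labels, whereas the methods name a stranded mRNA kit. The authors deposited counts of reads per gene and FPKM values. Per the labels and methods, reads were aligned to mm10 (GRCm38) and counted with HTSeq; whether counting used strand, and the annotation release, are not given in the sources used here.

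Here the counts as deposited were tested with the quasi-likelihood test of edgeR 4.0.16 (R 4.3.3), with TMM scaling, over all 8 libraries and a mean per group, for genes with a mean normalized count above 20. P-values were adjusted by the Benjamini-Hochberg method over all 15580 genes, and genes with an adjusted p under 0.05 were called. The common biological coefficient of variation was 0.107. Normalized counts are counts scaled by TMM to a common library size. Alternatives were DESeq2 1.42.0, limma 3.58.1 on log2(FPKM + 1) and log2(FPKM + 0.1), other scalings, no filter, only the compared groups, the replicate number as a block, and each library left out. The test was tried on simulated counts with known changes first.

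The 10 members were all named, along with the genes of the oxidative folding list called in any comparison, at most 12, and the 5 genes most like the members. Members and lists were chosen with earlier results of these data known. Libraries with the same number did not deviate together (r from -0.197 to 0.089), so the numbers do not pair the pools. P-values measure only the spread between pools. Gene positions are from GENCODE M21 and windows before starts from RefSeq, both GRCm38.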

Additional observations from a re-analysis of the deposited data

Results flagged for a closer look

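Vkorc1 drew attention because its changes under the 2 transgenes differed from each other when the difference itself was tested. The log2 difference between ACreb3l2 and AXBP1 lobes, which equals the difference of their changes against the same WT libraries, was -1.16 (edgeR adjusted p = 0.0104). Both ACreb3l2 libraries, at 100.6 and 108.5 normalized counts, lay below both AXBP1 libraries, at 240.2 and 227.5. On the log2(FPKM + 1) scale it was -0.72 and not called (limma adjusted p = 0.0983), and leaving out an ACreb3l2 or an AXBP1 library raised the edgeR adjusted p to between 0.0571 and 0.13. Of the exon bases of Vkorc1, 47.7% are shared with Gm21974 on the same strand.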

How the results depend on the processing

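Over 1110 values of single members under the alternatives, 1061 kept their side of the threshold, 22 lost a call, 27 gained one and 0 called values changed sign. The cause of the shifts below was not tested.

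The count of members called in ACreb3l2 against WT lobes, 1, became 3 without a filter and 2 by DESeq2, and ran from 0 to 2 with a library left out. In AXBP1 lobes the count of 0 became 1 without a filter. In double-transgenic against WT lobes the count of 4 became 8 without a filter and 7 by DESeq2, and ran from 1 to 6 with a library left out. By library size, by limma on either pseudocount and with only the compared groups the count in double-transgenic against WT lobes was 3. Between ACreb3l2 and AXBP1 lobes the count of 0 became 2 without a filter, 1 by DESeq2 and 1 with only the compared groups. Between double-transgenic and ACreb3l2 lobes it became 1 without a filter. Between double-transgenic and AXBP1 lobes the count of 1 became 0 by library size, by limma on either pseudocount and with the replicate block, 4 without a filter and 2 by DESeq2, and ran from 0 to 1 with a library left out. The replicate block changed no other count of members.

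The median log2 change of the members in ACreb3l2 lobes was -0.15 by library size, -0.18 by limma with a pseudocount of 1, and -0.26 to -0.14 with a library left out. In AXBP1 lobes it was -0.15 by library size, -0.36 and -0.37 by limma, and -0.31 to -0.11, and relative to the median of all genes it was -0.21, -0.23 and -0.21 in the first 3 of these. In double-transgenic lobes it was -0.24 by library size and -0.58 to -0.31. Between ACreb3l2 and AXBP1 lobes it was 0.15 by limma on either pseudocount, from -0.03, where the median of all genes was 0.151 and 0.183, so that relative to all genes the members stood at 0 and -0.03. Against ACreb3l2 lobes the double-transgenic median was -0.08 by library size, -0.25 by limma, and -0.25 to -0.14, and against AXBP1 lobes it was -0.11 by library size, -0.09 by limma (-0.21, -0.19 and -0.21 relative to all genes), and -0.30 to -0.15. For the interaction it was 0.12 and 0.13 by limma (0.03 relative to all genes on either pseudocount) and -0.12 to 0.12 with a library left out. Scaling by library size moved the median of all genes in double-transgenic lobes to 0.173, relative to which the members stayed at -0.41, and turned the share of calls that were higher from 30.5 to 66.9%. Of the 10 members, 4 kept their WT rank by counts per kilobase of exon.

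Over all genes, calls in ACreb3l2 lobes ran from 221 to 1455 over the other settings (473 as given) and from 153, without the second ACreb3l2 library, with a library left out. In double-transgenic lobes they ran from 654 to 3209 (1566 as given) and from 218, without the second double-transgenic library. In AXBP1 lobes, between ACreb3l2 and AXBP1 lobes, and between double-transgenic and AXBP1 lobes they reached 628, 730 and 755 without a filter, and between double-transgenic and ACreb3l2 lobes and for the interaction 513 and 126, from 0. Without the first AXBP1 library the calls between ACreb3l2 and AXBP1 lobes went from 112 to 18 and those between double-transgenic and AXBP1 lobes from 97 to 7. With 2 pools per group, counts of calls moved with single libraries.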

Other observations

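Genes of the secretory cargo of melanotropes were read beside the family. Of 6 such genes (Pomc, Chga, Chgb, Pcsk2, Pam and Cpe), all of which were tested, 1 was lower and 0 were higher in double-transgenic than in WT lobes, where 10.1% of all tested genes were called. This was Pam, the enzyme that amidates peptide ends, at 86460 and 84360 normalized counts in WT and 65290 and 49460 in double-transgenic lobes, a log2 change of -0.57 (edgeR adjusted p = 0.0268). The call was lost without either WT library, either AXBP1 library or the second double-transgenic library, with edgeR adjusted p up to 0.145. Pomc was at -0.84 (interval -1.41 to -0.28; edgeR adjusted p = 0.0614) and the precursor convertase gene Pcsk2 at -0.66 (edgeR adjusted p = 0.162). The median of the 6 was -0.51, against 0.01 for all tested genes. In ACreb3l2 and AXBP1 lobes the medians were -0.08 and -0.24, and the lowest edgeR adjusted p were 0.533 and 0.496.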
